A study of Arabidopsis thaliana with 20 samples.

Results

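Root tip cells of Arabidopsis thaliana seedlings at 4 days of age were compared between sections labelled elongation zone (EZ) and sections labelled meristematic zone (MZ). The comparison rests on 4 of the 20 RNA sequencing libraries of an age series, 2 biological replicates labelled EZ and 2 labelled MZ, chosen by their labels for zone and age. Genes with at least 1 FPKM in both libraries of either zone are described, here called the expressed genes. They number 17137 of the 33201 genes listed. Of these, 14757 met the minimum in both zones, 1503 only through the EZ libraries and 877 only through the MZ libraries. All plants were Col-0 with PET111:GFP, which lights up the columella, the central root cap below the stem cells. They grew on medium with 1xMS salts and 1% sucrose, both zones alike. Roots were cut and turned into protoplasts, and the cells without GFP were sorted. In both groups the sort leaves out the columella cells that carried the reporter and not the other cell types, such as the rest of the root cap. How evenly each cell type was recovered was not measured. The libraries of days 3, 5, 6 and 7, 16 in all, serve for comparison with the other ages.

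Cells of the root meristem copy their DNA, divide and build ribosomes at a high rate. As they leave it they stop dividing, take up water and lengthen, and cell layers such as endodermis, root hair cells and xylem then differentiate. The lateral root cap ensheathes the meristem and ends where elongation starts, where its cells die by a programmed route. Genes of replication, mitosis and ribosomes are therefore used as marks of dividing cells, and genes of wall loosening, water channels and cell layers as marks of later stages.

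The zone names and the growth genes stood opposite to each other. The medians of the DNA replication, histone and ribosome lists were higher in the libraries labelled EZ, at day 4 and at each other age. At day 4 the root hair, xylem and endodermal medians lay lower there, at -0.53, -0.36 and -0.91. In those lists 0 genes had an unadjusted p under 0.05 by limma at day 4. The groups are therefore called EZ libraries and MZ libraries after their labels, with no claim on which section they hold. The FPKM values scale fragments by transcript length and library size, and differences are given on the log2(FPKM + 1) scale, EZ minus MZ, with the standard error (SE) of a limma fit over all 20 libraries. Depth, recovered approximately from the spacing of low values, was 12.6 and 13 M fragments in the EZ libraries and 12.6 and 18.8 M in the MZ libraries. In the same order of replicates, 18019 and 17765 genes reached 1 FPKM in the EZ libraries and 16785 and 17464 in the MZ libraries. The zones were not well separated over all genes. Across the 22335 genes tested the 2 EZ libraries correlated with each other at 0.9146, and the 2 MZ libraries at 0.932. EZ replicate 1 correlated with MZ replicate 1 at 0.9322 and EZ replicate 2 with MZ replicate 2 at 0.9159, so each EZ library was at least as close to an MZ library as to its own replicate. Between the 2 EZ libraries 17.9% of the expressed genes differed by 2-fold or more in FPKM + 1, and between the 2 MZ libraries 15.8%. With such spread few genes passed a test with adjustment over all genes. Of 22335 genes, 1 rose in the EZ libraries (0.00448%) and 3 fell (0.0134%) at an adjusted p of 0.05, by limma with Benjamini-Hochberg adjustment, and 2299 had an unadjusted p under 0.05. Over every gene tested the median difference came to 0.04.

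Weaker criteria are used below as descriptions. Among the expressed genes 1317 lay higher (7.69%) and 865 lower (5.05%) in the EZ libraries at an unadjusted p of 0.05. A gene is called 2-fold apart where FPKM + 1 in the lower library of a zone was at least 2 times that in the higher library of the other zone. That held for 512 genes higher (2.99%) and 165 lower (0.963%) in the EZ libraries. The 2 libraries of a zone lay wholly above the other 2 for 4391 genes higher (25.6%) and 3385 lower (19.8%). Counts of list members are to be read against these shares.

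RCPG (AT1G65570), a polygalacturonase of the root cap that breaks down pectin, had the largest difference among the called genes with at least 10 FPKM. It stood at 27.5 and 10.2 FPKM in the EZ libraries, against 286 and 424 FPKM in the MZ libraries. The groups were far apart, and the 2 EZ values were the lowest of all 20 libraries of the series. RCPG fell by 4.29 ± 0.62 on the log2 scale (SE, adjusted p = 0.0339 by limma). At the other ages its mean difference was -1.40, where EZ libraries held 80.9 to 319.8 FPKM and MZ libraries 161 to 920.4 FPKM. The difference at day 4 exceeded the mean of the other ages by -2.89 ± 0.70 (SE, unadjusted p = 0.000912, adjusted p = 1). The call at day 4 was lost without EZ replicate 2 (adjusted p = 0.359), without MZ replicate 1 (0.133) or without MZ replicate 2 (0.144), and in 7 other settings (0.0556 to 0.459), with differences from -3.62 to -4.57 in all of these. Its upstream sequence, read from the RefSeq annotation of TAIR10.1 at chr1:24375896-24376145 on the minus strand, is shown as that of the gene with the largest called fall. Capitals mark a G-box (CACGTG) 33 bases before the annotated start, a motif in 5.81% of 32488 such promoters.
RCPG: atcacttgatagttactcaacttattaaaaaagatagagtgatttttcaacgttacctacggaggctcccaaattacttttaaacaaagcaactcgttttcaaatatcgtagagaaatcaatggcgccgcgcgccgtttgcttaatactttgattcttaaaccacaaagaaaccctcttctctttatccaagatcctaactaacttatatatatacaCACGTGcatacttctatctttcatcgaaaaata

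Other root cap genes differed less evenly. Of 7 root cap genes listed, 6 were expressed, 1 fell by adjusted p and 2 were lower at an unadjusted p (background 5.05%). CEL3 (AT1G71380), a cellulase of cap cells, was 28.9 and 8.28 FPKM in the EZ libraries, against 133 and 78 FPKM in the MZ libraries, a difference of -2.63 ± 0.74 (SE, adjusted p = 0.284 by limma). RCPG and CEL3 were the members 2-fold apart. SMB, a NAC factor that drives root cap maturation, lay on the other side at 15.9 and 21.9 FPKM in the EZ libraries and 6.19 and 12.3 FPKM in the MZ libraries. Its relatives BRN1 (77.2 and 104 against 117 and 155 FPKM) and BRN2 (77.5 and 137 against 114 and 207 FPKM) differed by -0.58 each, and CEL5, a second cap cellulase, held 195 and 136 FPKM in the EZ libraries and 200.2 and 91 FPKM in the MZ libraries. The list summed to 422 and 419 FPKM in the EZ libraries and 858 and 968 FPKM in the MZ libraries, with no member at 0. Its median difference was -0.58. It was -0.27 without EZ replicate 1, -0.34 without MZ replicate 2 and -0.89 without either other library. In such mixed samples fewer cells of a type and less RNA per cell cannot be told apart.

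The other calls were less familiar genes. AT5G49540, of the Rab5-interacting family, fell by 1.69 ± 0.22 on the log2 scale (SE, adjusted p = 0.0215 by limma), at 37.3 and 29.6 FPKM in the EZ libraries, against 123 and 98.1 FPKM in the MZ libraries. Its mean difference at the other ages was -0.72, with the other direction at day 7, at 34.6 and 38.8 FPKM in the EZ libraries and 27.3 and 24.5 FPKM in the MZ libraries. The call was lost without EZ replicate 2 (adjusted p = 0.145), without MZ replicate 1 (0.14) and with the replicate number as a block (0.0659). The following genes fell under 10 FPKM and are named because they passed the test, after their values were seen. AT3G22723, an uncharacterized gene with a transcript of 156 bases, was listed at 0 in both EZ libraries and at 6.44 and 8.84 FPKM in the MZ libraries (adjusted p = 0.000229). It was listed at 0 in all 16 libraries of the other ages, so it entered the test only through the MZ libraries of day 4, and its SE of 0.27 rests largely on groups at 0. The call was lost with a filter at 5 FPKM (adjusted p = 0.108) and with the replicate block (0.0659). AT1G76954, a defensin-like gene of 213 bases, was at 4.19 and 2.09 FPKM in the EZ libraries and listed at 0 in both MZ libraries (adjusted p = 0.0339) and in all libraries of the other ages. It likewise entered the test only through the EZ libraries of day 4, and its SE was 0.29. Its call was lost without EZ replicate 1 (adjusted p = 0.0763), without MZ replicate 1 (0.152) and without MZ replicate 2 (0.119). It was also lost with a pseudocount of 0.1 (0.113), among the expressed genes alone (0.0934), after quantile normalisation (0.0556) and with the replicate block (0.167). In a limma fit to the day 4 libraries alone none of the 4 calls held (adjusted p = 0.459 each).

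**Figure D1:**
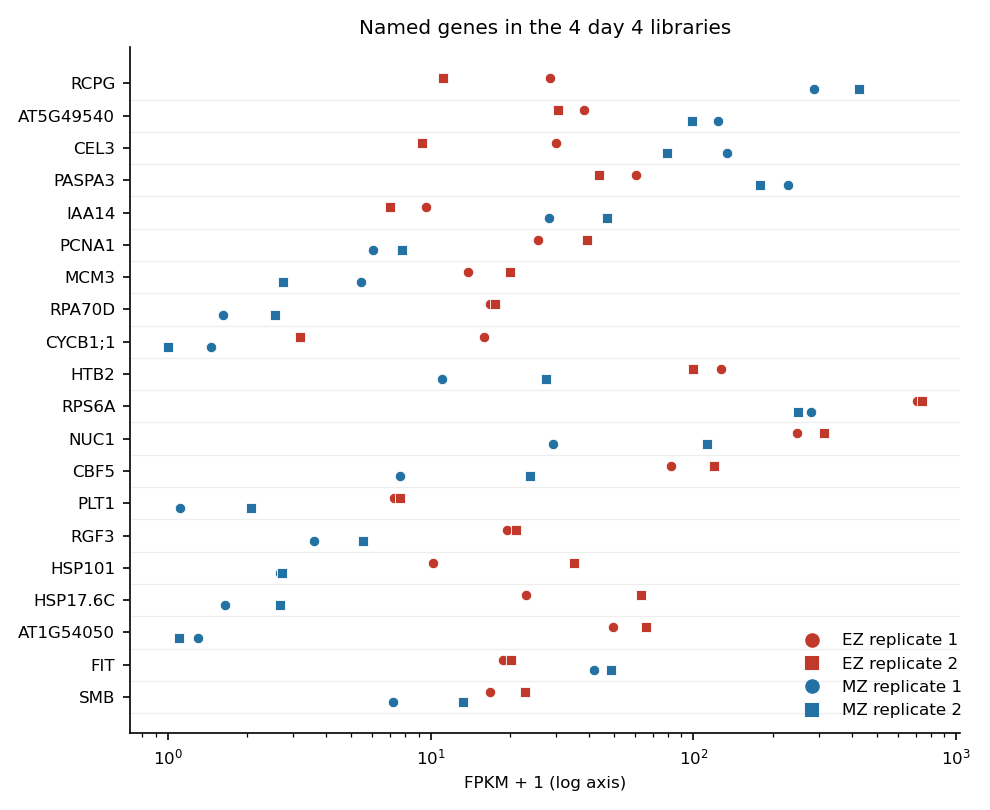
FPKM + 1 (log axis) of 20 named genes in the 4 day 4 libraries; red marks EZ, blue MZ, circles replicate 1 and squares replicate 2. RCPG, AT5G49540, CEL3, PASPA3, IAA14 and FIT lie lower in both EZ libraries, and the other genes shown lie higher in both.

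Genes of DNA replication were more abundant in the EZ libraries, although none passed adjustment over all genes. All 28 listed genes were expressed, 7 of them only through the EZ libraries. By limma 15 were higher at an unadjusted p of 0.05 (background 7.69%) and 0 lower, 11 were 2-fold apart higher (background 2.99%), and 21 had both EZ libraries above both MZ libraries (background 25.6%). Of the 21 members that met the minimum in both zones, 9 were higher at an unadjusted p and 8 were 2-fold apart. The median difference of the list was 1.41, against 0.03 for all expressed genes. The sum of the list was 268 and 349 FPKM in the EZ libraries and 99.3 and 107 FPKM in the MZ libraries. PCNA1, the sliding clamp of the polymerases, was 24.6 and 38.2 FPKM in the EZ libraries, against 5.04 and 6.8 FPKM in the MZ libraries, a difference of 2.21 ± 0.50 (SE, adjusted p = 0.183 by limma). Its partner PCNA2 stood at 20.3 and 16.5 FPKM in the EZ libraries and 4.38 and 2.15 FPKM in the MZ libraries. RPA70D, a subunit of the protein that coats single-stranded DNA, had the largest difference of the list, with 15.9 and 16.6 FPKM in the EZ libraries, against 0.621 and 1.57 FPKM in the MZ libraries (3.08 ± 0.74, adjusted p = 0.214). It met the minimum only through the EZ libraries.

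In the replicative helicase, the 6 subunit genes MCM2 to MCM7 differed by 1.41 to 2.19, with both EZ libraries above both MZ libraries in each. None passed adjustment, and MCM4 had an unadjusted p of 0.0839 by limma. MCM5 and MCM6 met the minimum only through the EZ libraries, where they are high. MCM3 was 12.9 and 19.1 FPKM in the EZ libraries, against 4.42 and 1.74 FPKM in the MZ libraries, and MCM7 20 and 10.4 FPKM against 2.37 and 2.43 FPKM. Supply and ligation enzymes followed, with RNR1, the large subunit of ribonucleotide reductase, at 16.7 and 27.3 FPKM in the EZ libraries and 4.46 and 6.05 FPKM in the MZ libraries. LIG1, the DNA ligase, stood at 19.7 and 25.2 FPKM in the EZ libraries and 7.61 and 7.94 FPKM in the MZ libraries. Regulators were less uniform. CYCA3;1, a cyclin of S phase, was 3.97 and 8.85 FPKM in the EZ libraries, against 0.673 and 0 FPKM in the MZ libraries (adjusted p = 0.155), and the factor E2FA was 6.58 and 5.44 FPKM against 2.07 and 2.44 FPKM. CYCA3;1 met the minimum only through the EZ libraries, where it is high. E2FB (9.53 and 8.81 FPKM in the EZ libraries, 10.6 and 8.41 FPKM in the MZ libraries) and the catalytic polymerase subunit ICU2 (2.34 and 1.72 against 1.93 and 2.01 FPKM) overlapped between zones. The licensing factor CDT1A was 8.31 and 2.11 FPKM in the EZ libraries and 7.44 and 7.02 FPKM in the MZ libraries.

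E2F factors bind a short motif before many S phase genes, so the 250 bases before the annotated start were searched on both strands for TTTCCCGC, TTTGGCGC, TTTCCCGG or TTTGGCGG. A match occurred in 12 of the 28 replication promoters (42.9%), in 2.03% of those of the expressed genes and in 2.59% of all 32488. The sequences of MCM3 (chr5:18773707-18773956, minus strand) and RPA70D (chr5:24552856-24553105, minus strand), from RefSeq and TAIR10.1, show members far apart between the zones. Capitals mark E2F motifs and site II elements (TGGGCC or TGGGCT), which do not overlap each other here. MCM3 holds E2F motifs 170 and 59 bases before the start, and RPA70D 1 at 26 bases. A match is a description of the letters and not a bound site.
MCM3: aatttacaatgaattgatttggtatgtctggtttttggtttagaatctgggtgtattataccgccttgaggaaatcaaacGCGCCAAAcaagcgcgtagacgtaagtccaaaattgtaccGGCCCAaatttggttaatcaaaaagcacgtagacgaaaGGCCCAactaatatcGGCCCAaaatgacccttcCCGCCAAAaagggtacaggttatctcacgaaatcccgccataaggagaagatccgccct
RPA70D: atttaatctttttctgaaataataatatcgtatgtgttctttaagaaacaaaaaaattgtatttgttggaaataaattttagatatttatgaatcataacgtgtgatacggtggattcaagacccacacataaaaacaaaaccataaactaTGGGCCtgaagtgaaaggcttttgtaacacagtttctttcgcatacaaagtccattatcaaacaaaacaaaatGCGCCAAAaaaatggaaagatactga

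Most histone genes lay higher in the EZ libraries. All 19 listed were expressed, 2 only through the EZ libraries, with a median difference of 1.12. By limma 0 passed adjustment, 11 were higher at an unadjusted p (background 7.69%) and 0 lower, and 6 were 2-fold apart higher (background 2.99%). Of the 17 that met the minimum in both zones, 9 were higher at an unadjusted p and 4 were 2-fold apart. HTB2, an H2B gene, was 126 and 98.6 FPKM in the EZ libraries, against 10.1 and 26.4 FPKM in the MZ libraries (2.69 ± 0.60, adjusted p = 0.179). HTR9, which encodes the replication-coupled H3.1, was 127 and 105 FPKM in the EZ libraries, against 10.6 and 32.1 FPKM in the MZ libraries. Of the other H3.1 genes, HTR1, HTR2 and HTR13 lay higher in both EZ libraries, by 1.36, 1.93 and 2.82. HTR3 did not, at 122 and 137 FPKM in the EZ libraries and 129 and 145 FPKM in the MZ libraries. The genes of H3.3, which is deposited outside replication, had differences of -0.21 to 0.27, and no difference between histone types was tested. HTR5 held 288 and 376 FPKM in the EZ libraries and 331 and 436 FPKM in the MZ libraries, HTR8 402 and 585 against 413 and 544 FPKM, and HTR4 92.1 and 103 against 74.9 and 86.8 FPKM. The genes of H2A.Z, another variant deposited outside replication, lay higher in both EZ libraries, with HTA8 at 2.53, HTA11 at 1.31 and HTA9 at 0.64, and HTA13, an H2A gene, was level at 0.03. CENH3, the histone of centromeres, was 3.73 and 9.47 FPKM in the EZ libraries, against 0.472 and 0.916 FPKM in the MZ libraries. CENH3 and HTR13 met the minimum only through the EZ libraries, where they are high. An MSA core (CCAACGG or TCAACGG or CTAACGG), the element known from genes of late G2 and M phase, occurred in 42.1% of the histone promoters and 27.3% of the mitosis promoters, against 5.07% of those of the expressed genes and 4.15% of all.

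Mitotic genes leaned to the EZ libraries with a wide spread. Of 35 listed 22 were expressed, 8 only through the EZ libraries. Their median difference was 0.62, and over the whole list with no minimum it was 0.75. By limma 6 were higher at an unadjusted p (background 7.69%), 0 lower and 0 by adjusted p, and 4 were 2-fold apart higher (background 2.99%). All 6 met the minimum only through the EZ libraries, where they are high, and 0 of the 14 members expressed in both zones were higher at an unadjusted p, so these counts lend no support to a difference. The list summed to 304 and 115 FPKM in the EZ libraries and 81 and 124 FPKM in the MZ libraries, so EZ replicate 1 was the highest. Among the 22 members 4 differed 2-fold or more between the EZ libraries, a share near the 17.9% of all expressed genes, and 22.7% did so between the MZ libraries. KNOLLE and CYCB2;4, whose values follow, are listed genes under the minimum. KNOLLE, the syntaxin of the cell plate, was 23.2 and 0.0738 FPKM in the EZ libraries and 1.55 and 0.455 FPKM in the MZ libraries. CYCB1;2 was 33 and 1.48 FPKM in the EZ libraries and 0.394 and 0.371 FPKM in the MZ libraries, and CYCB2;4 12.1 and 0 FPKM against 0.0636 and 0 FPKM. CYCB1;1, the B-type cyclin used as a mitosis reporter, was 15 and 2.18 FPKM in the EZ libraries and 0.466 and 0 FPKM in the MZ libraries (2.56 ± 0.92, adjusted p = 0.376). At the other ages the MZ libraries held 2.61 to 9.84 FPKM of CYCB1;1, so both day 4 values lay below that range. CDKB2;2, a mitotic kinase, was more even, at 6.07 and 6.42 FPKM in the EZ libraries, against 0.0719 and 1.14 FPKM in the MZ libraries (2.26 ± 0.60, adjusted p = 0.271). Without MZ replicate 2 the median was 1.07, without EZ replicate 2 it was 0.95, and after quantile normalisation 0.39.

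Genes that hold division back or lead into the endocycle, the copying of DNA without mitosis, went both ways. Of 13 expressed members 3 were higher (background 7.69%) and 3 lower (background 5.05%) at an unadjusted p by limma. Of the 3 higher ones 2 were 2-fold apart (background 2.99%), and 0 members passed adjustment. The 3 higher ones met the minimum only through the EZ libraries. KRP3, a CDK inhibitor, was 6.73 and 3.83 FPKM in the EZ libraries, against 0.0791 and 0 FPKM in the MZ libraries. Its relative KRP6 was lower, at 11.9 and 10.7 FPKM in the EZ libraries and 29.1 and 30 FPKM in the MZ libraries (-1.31 ± 0.37, adjusted p = 0.284). SIM, an inhibitor with a part in the endocycle, held 34.1 and 33.7 FPKM in the EZ libraries and 57.6 and 58.1 FPKM in the MZ libraries. DEL1, a repressor of endocycle onset, was 6.64 and 5.16 FPKM in the EZ libraries, against 1.43 and 0.766 FPKM in the MZ libraries. The D-type cyclins, which start the cycle in G1, showed no such difference, with a median of 0.13 over 7 expressed genes and 0 at an unadjusted p. That median was -0.14 without EZ replicate 1 and 0.28 without EZ replicate 2.

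Ribosomal protein genes lay higher in the EZ libraries at a similar size in both replicates. All 14 listed were expressed in both zones, and 13 had both EZ libraries above both MZ libraries (background 25.6%). By limma 9 were higher at an unadjusted p (background 7.69%), 0 lower and 0 by adjusted p, and the median was 1.11. RPS6A, a protein of the small subunit, was 708 and 742 FPKM in the EZ libraries, against 278 and 249 FPKM in the MZ libraries (1.46 ± 0.37, adjusted p = 0.247). RPL3A was 677 and 756 FPKM in the EZ libraries, against 228 and 284 FPKM in the MZ libraries. RPL10A ran the other way, at 406 and 416 FPKM in the EZ libraries and 538 and 628 FPKM in the MZ libraries, and its relative RPL10B was 23.3 and 31.4 FPKM against 5.83 and 9.85 FPKM. Among 291 expressed genes described as ribosomal proteins, 120 were higher (background 7.69%) and 4 lower (background 5.05%) at an unadjusted p. In that family 46 were 2-fold apart higher (background 2.99%) and 0 lower, and the median was 0.98. That family summed to 53491 and 65351 FPKM in the EZ libraries and 26729.5 and 33635 FPKM in the MZ libraries.

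Genes of ribosome assembly in the nucleolus had the largest list median, 1.79 over 11 expressed genes, and also separated the 2 MZ libraries. The list summed to 1057 and 1311 FPKM in the EZ libraries, against 169.6 and 530.2 FPKM in the MZ libraries. In MZ replicate 2, 8 of the 11 were at least 2-fold above MZ replicate 1, against 1640 of all 17137 expressed genes. FIB2, a fibrillarin that methylates ribosomal RNA, was 188 and 226 FPKM in the EZ libraries, against 6.61 and 60.1 FPKM in the MZ libraries (3.27 ± 1.15, adjusted p = 0.367 by limma). CBF5, the pseudouridine synthase, was 81.5 and 119 FPKM in the EZ libraries, against 6.66 and 22.8 FPKM in the MZ libraries. NUC1, a nucleolin, was 247 and 313 FPKM in the EZ libraries, against 28.2 and 112 FPKM in the MZ libraries. TOR, the kinase that promotes ribosome production, was not higher, at 2.95 and 4.48 FPKM in the EZ libraries and 5.77 and 5.29 FPKM in the MZ libraries. By limma 6 of the 11 were higher at an unadjusted p (background 7.69%), 0 lower and 0 by adjusted p, and 4 were 2-fold apart higher (background 2.99%). The median was 1.1 without MZ replicate 1 and 2.53 without MZ replicate 2.

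Promoters of ribosome genes often carry site II elements and the telo box (AAACCCTA). Site II occurred in 71.4% of the ribosomal protein and 81.8% of the ribosome biogenesis promoters, against 23.2% of the expressed genes and 17.7% of all. It also occurred in 53.6% of the replication and 56.5% of the heat shock promoters. The telo box occurred in 3 of the 11 biogenesis promoters (27.3%) and in 0 of the 14 ribosomal protein promoters, against 4.76% of all. CBF5 (chr3:21156076-21156325, minus strand, RefSeq, TAIR10.1) is shown for site II elements, in capitals, 73 and 42 bases before the start.
CBF5: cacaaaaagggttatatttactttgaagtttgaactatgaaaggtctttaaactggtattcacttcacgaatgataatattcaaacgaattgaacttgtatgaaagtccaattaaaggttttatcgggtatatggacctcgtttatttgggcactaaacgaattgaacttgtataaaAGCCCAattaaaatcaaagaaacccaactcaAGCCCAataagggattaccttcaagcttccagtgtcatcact

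**Figure D2:**
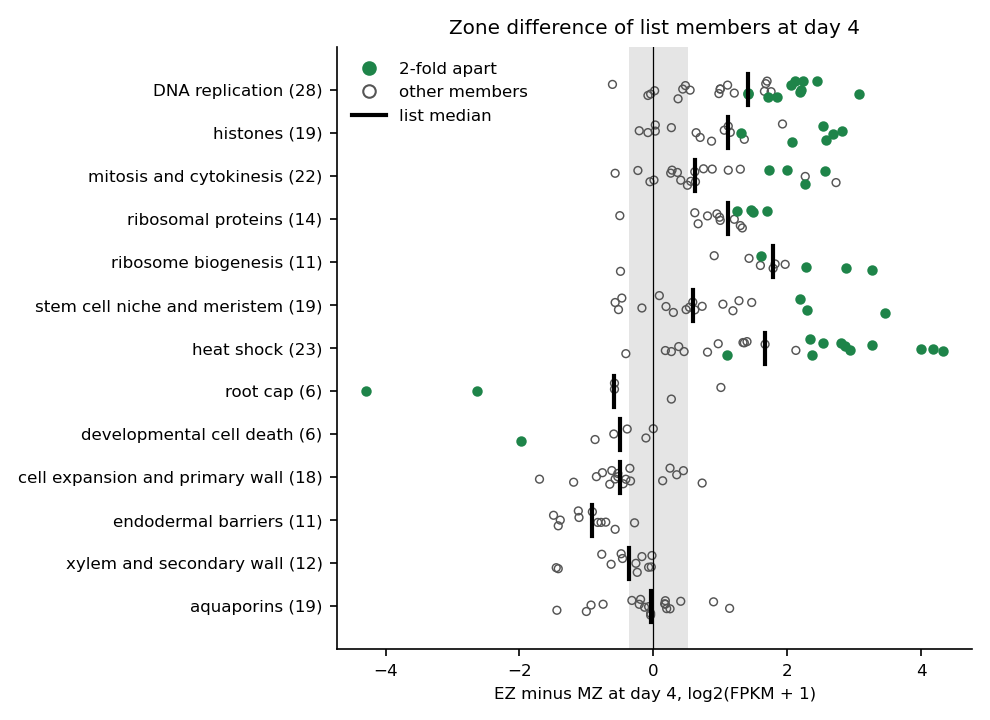
Difference EZ minus MZ at day 4 on the log2(FPKM + 1) scale for each expressed member of 13 lists (number in brackets); filled points are 2-fold apart, black bars are list medians and the grey band spans the interquartile range of all expressed genes, -0.37 to 0.52. Replication, histone, mitosis, ribosome, stem cell and heat shock medians lie right of the band. Root cap, cell death, expansion and endodermal medians lie left of it, and RCPG is the point farthest left.

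Heat shock genes formed the other large group higher in the EZ libraries. Of 24 listed 23 were expressed, 5 only through the EZ libraries, with a median of 1.67. By limma 14 were higher at an unadjusted p (background 7.69%), 0 lower and 0 by adjusted p, and 11 were 2-fold apart higher (background 2.99%). Of the 18 that met the minimum in both zones, 10 were higher at an unadjusted p and 7 were 2-fold apart. Small heat shock proteins, which hold unfolding proteins, led the list. HSP17.6C was 22 and 62.4 FPKM in the EZ libraries, against 0.655 and 1.68 FPKM in the MZ libraries (4.18 ± 0.76, adjusted p = 0.113). HSP23.6 of mitochondria was 8.7 and 57.3 FPKM in the EZ libraries, against 0 and 1.22 FPKM in the MZ libraries, and HSP22 was 12 and 30.1 FPKM and listed at 0 in both MZ libraries. AT1G54050, described as an HSP20-like chaperone and outside the list, had 48.6 and 65.2 FPKM in the EZ libraries, against 0.305 and 0.105 FPKM in the MZ libraries (5.58 ± 0.94, adjusted p = 0.113). HSP17.6C, HSP23.6, HSP22 and AT1G54050 met the minimum only through the EZ libraries, where they are high, so their size lends no separate support. HSP101, which pulls aggregates apart, was 9.24 and 34.2 FPKM in the EZ libraries, against 1.67 and 1.73 FPKM in the MZ libraries (2.81 ± 0.71, adjusted p = 0.248).

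The EZ replicates differed in these genes. In EZ replicate 2, 13 of the 23 were at least 2-fold above EZ replicate 1, and 1 was 2-fold below. Over all 17137 expressed genes 1579 were above and 1483 below by that measure. HSP90.1 was 13.4 and 59.3 FPKM in the EZ libraries and 4.8 and 6.8 FPKM in the MZ libraries. HSC70-1, the constitutive chaperone, was even between them, at 1215 and 1237 FPKM in the EZ libraries, against 550.4 and 593 FPKM in the MZ libraries. Among the heat shock factors HSFA2, which sustains the response, was 10 and 4.31 FPKM in the EZ libraries, against 0.896 and 0.164 FPKM in the MZ libraries. HSFA2 met the minimum only through the EZ libraries, where it is high. HSFA1A, the factor that starts the response, overlapped at 1.58 and 2.28 FPKM in the EZ libraries and 4.41 and 1.77 FPKM in the MZ libraries. The core of the heat shock element, GAANNTTC, occurred in 21.7% of the heat shock promoters and in 9.27% of all. HSP17.6C (chr1:19980049-19980298, plus strand, RefSeq, TAIR10.1) is shown with that element, 53 bases before the start, and site II elements at 150 and 134 bases in capitals.
HSP17.6C: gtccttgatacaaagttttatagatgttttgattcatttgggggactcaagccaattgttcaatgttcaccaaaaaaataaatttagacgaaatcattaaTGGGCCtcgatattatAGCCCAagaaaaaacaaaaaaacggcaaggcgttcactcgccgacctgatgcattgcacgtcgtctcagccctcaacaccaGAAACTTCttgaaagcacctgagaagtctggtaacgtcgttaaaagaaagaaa

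**Figure D3:**
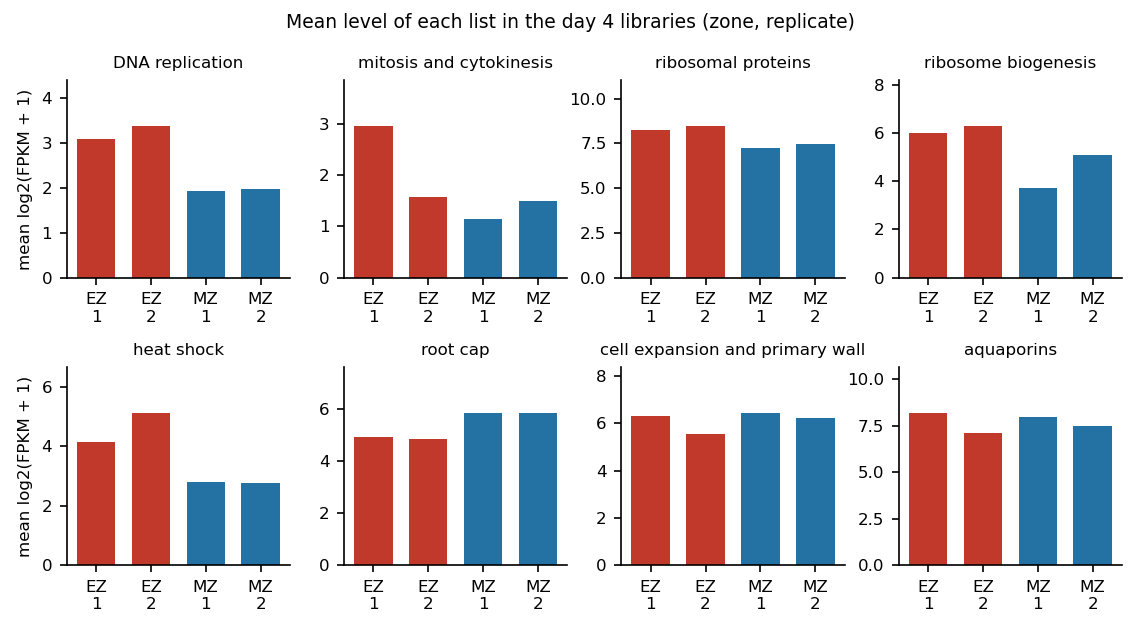
Mean log2(FPKM + 1) of all genes of 8 lists in each day 4 library, EZ in red and MZ in blue, with the replicate number below. Replication, ribosomal protein and heat shock bars are higher in both EZ libraries, the mitosis bar mainly in EZ replicate 1, and the aquaporin bars are higher in replicate 1 of both zones.

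Genes of the stem cell niche leaned to the EZ libraries, but few stood clear of the spread. Of 23 listed 19 were expressed, and the median was 0.59. By limma 2 were higher at an unadjusted p (background 7.69%), 0 lower and 0 by adjusted p, and 3 were 2-fold apart higher (background 2.99%). Of the 16 that met the minimum in both zones, 1 was higher at an unadjusted p and 2 were 2-fold apart. PLT1, a master factor of the meristem, was 6.23 and 6.63 FPKM in the EZ libraries, against 0.113 and 1.08 FPKM in the MZ libraries (2.29 ± 0.88, adjusted p = 0.405). It met the minimum only through the EZ libraries, where it is high. Its relative PLT2 overlapped, at 4.99 and 1.55 FPKM in the EZ libraries and 1.05 and 4.67 FPKM in the MZ libraries. RGF3, a peptide that maintains PLT levels, was 18.5 and 20.2 FPKM in the EZ libraries, against 2.6 and 4.55 FPKM in the MZ libraries, and GIF1, a growth coactivator, 38.5 and 63.2 FPKM against 1.59 and 7.1 FPKM. The radial patterning factors SHR (8.9 and 9.26 against 5.33 and 1.72 FPKM) and SCR (7.22 and 11.7 against 6.93 and 5.28 FPKM) lay higher in both EZ libraries, by 1.28 ± 0.88 and 0.54 ± 0.71. WOX5, the mark of the quiescent centre, was 8.82 and 30.2 FPKM in the EZ libraries, against 5.59 and 5.02 FPKM in the MZ libraries. Those were the 4 highest WOX5 values of the 20 libraries, since no library of another age exceeded 4.5 FPKM.

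A few genes of cell death and of the primary wall lay lower in the EZ libraries, and none passed adjustment. PASPA3, an aspartic protease of dying cells, was 59.3 and 42.6 FPKM in the EZ libraries, against 227 and 178 FPKM in the MZ libraries (-1.98 ± 0.52, adjusted p = 0.272 by limma). The nuclease BFN1 was 66.3 and 70.7 FPKM in the EZ libraries, against 127 and 125 FPKM in the MZ libraries, and the metacaspase MC9 409 and 561 against 629.8 and 622 FPKM, with unadjusted p of 0.186 and 0.587 by limma. DMP4 and SCPL48 overlapped between the zones, with differences of 0.00 and -0.11. Of 6 death genes 1 was lower at an unadjusted p (background 5.05%) and 4 had both EZ libraries below both MZ libraries (background 19.8%), with a median of -0.49. That median was -0.21 without EZ replicate 1 and -0.78 without EZ replicate 2. Of 18 expressed genes of expansion and the primary wall, 4 were lower at an unadjusted p (background 5.05%), 0 higher and 0 by adjusted p. They were CESA1, a cellulose synthase, at 171 and 93.5 FPKM in the EZ libraries and 274 and 191 FPKM in the MZ libraries, CTL1, CSI1 and the proton pump AHA1. Their differences were -0.85, -0.62, -0.65 and -0.53, and CESA3, CESA6, KOR1 and COBRA, other genes of cellulose synthesis, did not pass (-0.34 to -0.57). The wall-loosening expansin EXPA14 (45.5 and 30.2 against 20.2 and 24 FPKM) lay higher in both EZ libraries, and EXPA1 (24.6 and 3.92 against 26.2 and 12.2 FPKM) overlapped. The median of the list was -0.49, and it was -0.08 without EZ replicate 2 and -0.78 without EZ replicate 1.

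Marks of differentiating layers were mostly within the spread. In the endodermal barrier list all 11 expressed genes had a negative difference, and 8 had both EZ libraries below both MZ libraries (background 19.8%). Of these 11, 0 had an unadjusted p under 0.05. The median of -0.91 was -0.49 without EZ replicate 1 and -1.43 without EZ replicate 2. CASP1, a scaffold of the Casparian strip, was 314 and 639 FPKM in the EZ libraries and 815 and 665 FPKM in the MZ libraries (-0.71 ± 1.1). Of 11 root hair genes 0 had an unadjusted p under 0.05, and 9 had a negative difference, against 8197 of all 17137 expressed genes. Their median of -0.53 was -1.05 without MZ replicate 1 and -0.11 without MZ replicate 2. EXPA7, a root hair expansin, was 79.7 and 28.6 FPKM in the EZ libraries and 102 and 130.1 FPKM in the MZ libraries. GL2, the factor of non-hair cells, overlapped at 3.92 and 5.58 FPKM in the EZ libraries and 5.17 and 7.09 FPKM in the MZ libraries, and XCP1, a xylem protease, at 64.7 and 133 against 111 and 80 FPKM. In 10 epidermal fate genes 1 was lower at an unadjusted p (background 5.05%), CPC, which promotes root hair fate, with a difference of -1.02. The 12 expressed xylem genes all had a negative difference, with a median of -0.36 and 0 at an unadjusted p. That median was -0.10 without MZ replicate 1 and -0.96 without MZ replicate 2. In vascular patterning 1 of 5 expressed genes was higher at an unadjusted p (background 7.69%), LHW, by 1.34. The 10 expressed peroxidases and NADPH oxidases had a median of -0.42 and 0 at an unadjusted p. The 14 phloem genes had 9 expressed members with a median of -0.40, and SEOR1, which makes sieve element filaments, was listed at 0 in both EZ libraries and at 3.2 and 1.28 FPKM in the MZ libraries. SEOR1 met the minimum only through the MZ libraries, where it is high. Genes of other tissues were low in all libraries except for seed reserve genes in MZ replicate 1, whose part in the results was not tested. The 7 genes of photosynthetic tissue summed to 5.02 and 19.8 FPKM in the EZ libraries and 3.32 and 8.63 FPKM in the MZ libraries, and the 9 seed reserve genes to 3.73 and 5.65 against 63.1 and 1.93 FPKM.

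Water channels separated the replicates and not the zones. The 19 aquaporins had a median difference of -0.04 (-0.56 without EZ replicate 1 and 0.52 without EZ replicate 2), with 0 higher and 1 lower at an unadjusted p by limma and 0 by adjusted p. They summed to 12233 and 6106 FPKM in the EZ libraries and 11497 and 7589 FPKM in the MZ libraries. Replicate 1 was the higher one for 18 of the 19 in the EZ libraries and for 15 in the MZ libraries. Over all 17137 expressed genes it was the higher one for 8402 in the EZ libraries and 8272 in the MZ libraries. PIP2;1, of the plasma membrane, was 1895 and 1053 FPKM in the EZ libraries and 2081 and 1009 FPKM in the MZ libraries (-0.04 ± 0.77). TIP1;1, of the vacuole, was 673 and 405 FPKM in the EZ libraries and 614 and 344 FPKM in the MZ libraries. UPB1, a factor that limits peroxidase genes, was 118 and 41.1 FPKM in the EZ libraries and 110.5 and 132 FPKM in the MZ libraries.

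Hormone genes gave a few wide differences within quiet lists. IAA14, an auxin response repressor known from lateral root initiation, was 8.62 and 6.04 FPKM in the EZ libraries, against 27.1 and 46 FPKM in the MZ libraries (-2.14 ± 0.41, adjusted p = 0.113 by limma). It was 1 of 2 lower at an unadjusted p among 22 expressed auxin response genes (background 5.05%), and 1 was higher. The other lower one was TAA1, an auxin synthesis enzyme, at 16.1 and 9.82 FPKM in the EZ libraries and 22.8 and 35.5 FPKM in the MZ libraries. IAA33, outside the list, was 14.7 and 27 FPKM in the EZ libraries, against 0 and 1.31 FPKM in the MZ libraries (3.79 ± 0.84, adjusted p = 0.179). Among the auxin carriers the importer LAX2 was 2-fold apart higher, at 8.08 and 9.31 FPKM in the EZ libraries, against 0.309 and 0.91 FPKM in the MZ libraries (2.61 ± 0.86, adjusted p = 0.342). IAA33 and LAX2 met the minimum only through the EZ libraries, where they are high. PIN2 was 155 and 167 FPKM in the EZ libraries and 74.7 and 108 FPKM in the MZ libraries (0.84 ± 0.47). AUX1 was level, at 119 and 129.6 FPKM in the EZ libraries and 118 and 125 FPKM in the MZ libraries.

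Counts in the next lists were small, beside 7.69% of all expressed genes higher and 5.05% lower at an unadjusted p. Among 18 expressed cytokinin genes 0 were higher and 2 lower at an unadjusted p. These were the receptor AHK4 (24.2 and 10 FPKM in the EZ libraries, 43.7 and 25.8 FPKM in the MZ libraries) and the response regulator ARR3 (40.8 and 23 against 53.4 and 90.2 FPKM). The 16 expressed gibberellin and brassinosteroid genes had a median of 0.03, and 1 was lower at an unadjusted p, GASA4, with a difference of -0.93. Of 20 expressed genes of jasmonate, wounding and touch 2 were higher and 2 lower at an unadjusted p by limma, with a median of -0.13. MYC2, the factor that jasmonate releases, was 112 and 113 FPKM in the EZ libraries, against 48.5 and 62.1 FPKM in the MZ libraries. Its repressor JAZ1 was 478 and 556 FPKM in the EZ libraries, against 785 and 756 FPKM in the MZ libraries (-0.58 ± 0.25, adjusted p = 0.449). Of 12 expressed iron genes 1 was higher and 1 lower at an unadjusted p. Their median of 0.08 was -0.44 without MZ replicate 1 and 0.45 without EZ replicate 1. FIT, the factor of iron uptake, was 17.8 and 19.2 FPKM in the EZ libraries, against 40.7 and 47.7 FPKM in the MZ libraries (-1.21 ± 0.44, adjusted p = 0.384). The reductase FRO2 was 17.1 and 11.7 FPKM in the EZ libraries and 34.8 and 28.5 FPKM in the MZ libraries. The phloem iron transporter OPT3 lay the other way, at 32.6 and 26.9 FPKM against 15.3 and 5.63 FPKM. Of 15 expressed phosphate genes and 6 nitrate genes 0 had an unadjusted p under 0.05. Among 13 clock genes 1 did, the RNA-binding protein GRP7, a share near the background of 7.69%. It stood at 564 and 1229.8 FPKM in the EZ libraries and 133 and 511 FPKM in the MZ libraries.

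Outside the lists, some of the 2-fold-apart genes with at least 10 FPKM in the higher zone are given as examples, chosen after their values were seen. Higher in the EZ libraries were the thaumatin-like genes AT1G73620, at 27.3 and 28.9 FPKM against 0.276 and 1.32 FPKM in the MZ libraries, and AT2G28790, at 42.5 and 42.5 FPKM against 2 and 3.81 FPKM. The peptide gene RGF8 was 9.85 and 22.1 FPKM in the EZ libraries, against 0 and 0.526 FPKM in the MZ libraries, and PDF2.5, a small cysteine-rich protein, 122 and 227 FPKM against 18.1 and 14.9 FPKM. GRP4, an RNA-binding protein, was 147 and 226 FPKM in the EZ libraries, against 6.77 and 57.2 FPKM in the MZ libraries. Lower in the EZ libraries was ZPR3, a small leucine zipper protein that blocks HD-ZIP III factors, at 3.92 and 0 FPKM, against 21.9 and 22.7 FPKM in the MZ libraries (-3.39 ± 0.79, adjusted p = 0.197 by limma). GRI, a secreted protein tied to cell death in leaves, was 8.86 and 1.77 FPKM in the EZ libraries, against 32.7 and 29.4 FPKM in the MZ libraries. The hydrolase gene AT4G16820 was 0.162 and 1.08 FPKM in the EZ libraries, against 8.07 and 18.4 FPKM in the MZ libraries (-3.09 ± 0.55, adjusted p = 0.113). AT1G73620 and RGF8 met the minimum only through the EZ libraries, and ZPR3 and AT4G16820 only through the MZ libraries, each where it is high.

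The day 4 difference was set beside the mean difference of days 3, 5, 6 and 7. These comparisons share no library. Across the 17137 expressed genes the correlation was 0.68, a description over genes, which are not replicates and share the libraries. Of the 512 genes 2-fold apart higher at day 4, 97.3% had a positive difference at the other ages, and of the 165 lower, 84.2% had a negative one. Over all expressed genes the median difference at the other ages was 0.13, which favours a positive sign. The shares are therefore not compared with each other. By limma 1 of 22335 genes differed from the other ages at an adjusted p of 0.05 (0.00448%), AT3G22723 (adjusted p = 0.000982), and 746 had an unadjusted p under 0.05. Replication genes had a median of 1.41 at day 4 and 1.34 as the mean of the other ages, histones 1.12 and 1.14, and heat shock genes 1.67 and 1.68. Mitotic genes stood at 0.62 at day 4, against 1.55, 1.38, 0.81 and 0.99 at days 3, 5, 6 and 7, but the day 4 value was 0.95 without EZ replicate 2 and 1.07 without MZ replicate 2, so its rank rests on single libraries. The cell death list was at -0.49 at day 4 (-0.21 to -0.78 when a library was left out), against -2.13, -1.42, -1.27 and -1.24 at those days. Ribosome biogenesis stood at 1.79, against 2.77, 2.51, 1.33 and 2.38. These list values carry no test.

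**Figure D4:**
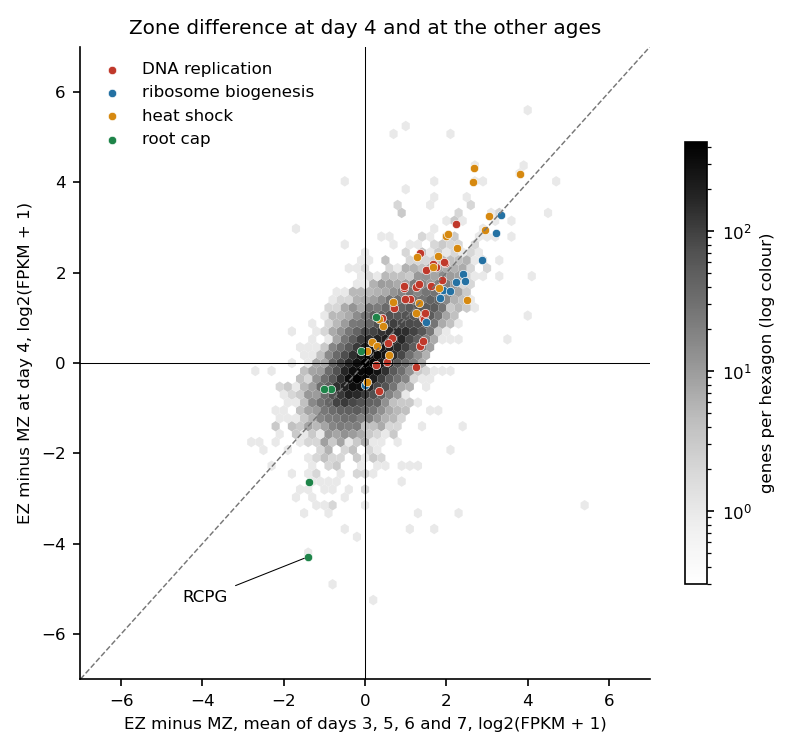
Each expressed gene's difference EZ minus MZ at day 4 (vertical) against its mean difference at days 3, 5, 6 and 7 (horizontal), on the log2(FPKM + 1) scale; grey shade counts genes, colours mark 4 lists and the dashed line marks equal differences. Most list members lie near the line, and RCPG lies well below it, at -4.29 against -1.40.

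**Figure D5:**
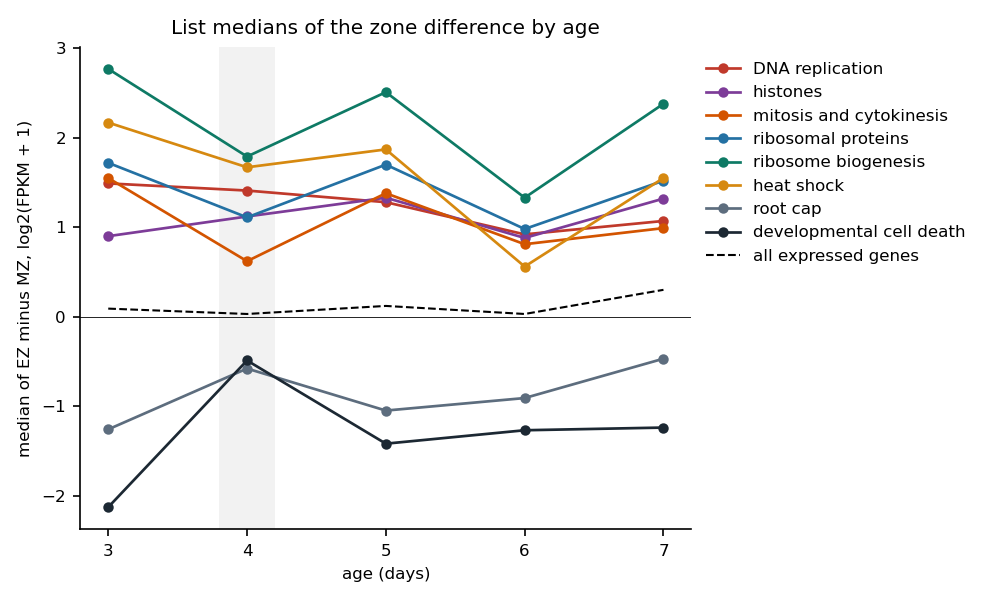
Median difference EZ minus MZ of the expressed members of 8 lists at each age in days, on the log2(FPKM + 1) scale, with day 4 shaded and all expressed genes as a dashed line. At day 4 the growth lists stay above 0, mitosis is at 0.62, and the root cap and cell death lists lie at -0.58 and -0.49.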

How the data were processed

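Total RNA of sorted cells was amplified with a SMARTer low input kit and made into libraries with a low input kit, per the labels. The deposited table holds FPKM values for 33201 genes and 20 libraries, made by the authors. TopHat2 2.0.13, Cufflinks 2.1.1 and TAIR10 are named in the submitters' processing notes, with roles and settings not given in the sources used here. Depth was estimated from how low FPKM values step in transcripts of 2000 or more bases. Between 64.7% and 69.8% of these lay within 0.1 of a whole multiple in the day 4 libraries, so it is approximate. No counts were used.

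The 22335 genes that reached 1 FPKM in any 2 libraries entered a limma 3.58.1 fit in R 4.3.3 on log2(FPKM + 1), which shrinks differences of low genes. It had 10 group means, a variance trend and Benjamini-Hochberg adjustment over all genes, and its tests are two-sided. SEs rest on 2 libraries a group with a spread shared by all 20. The day 4 contrast and its change from the mean of the other ages were tested. An exact 0 means listed at 0. The 31 lists of 483 genes, of which 405 were expressed at day 4, and the tests were chosen with earlier results of these data known. The 2-fold-apart and no-overlap criteria were added after the data were seen. Named genes were 26 set in the list of tests, up to 10 called in each direction with at least 10 FPKM, and those said to be chosen after their values were seen. List members given as examples were chosen likewise. Genes sharing at least 50% of their 32-base words with another gene were left out of ranked picks. Identifiers matched the RefSeq annotation of TAIR10.1 for 32489 genes, which gave names and promoters. That build differs in name from the one in the notes, and the table has no coordinates. Replicate numbers pair nothing in the labels. Other settings tried were a pseudocount of 0.1 or 5, the filter removed or raised to 5 FPKM, the expressed genes alone, quantile normalisation, median-of-ratios scaling, the day 4 libraries alone, a replicate block, library weights (statmod 1.5.0), a robust variance prior, and leaving out each library. The fit was tested on simulated data. The result for 1 listed gene is not reported here.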

Additional observations from a re-analysis of the deposited data

Results flagged for a closer look

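AT3G22723 stood out because its zone difference at day 4 differed from the mean of the other ages by its own test (adjusted p = 0.000982 by limma over 22335 genes). It was listed at 0 in both EZ libraries and at 6.44 and 8.84 FPKM in the MZ libraries at day 4, and at 0 in the 16 libraries of the other ages. It entered the fit only through those 2 libraries, so the change restates its day 4 difference (-3.10 on the log2 scale for both) with a spread taken largely from groups at 0, and lends no separate support. This call was absent with a pseudocount of 0.1 (adjusted p = 0.149), a filter at 5 FPKM (0.999) and the replicate block (0.218).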

How the results depend on the processing

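The counts of calls are small and move with most choices. Of the genes higher in the EZ libraries (1 as reported), 0 passed with a pseudocount of 0.1, a filter at 5 FPKM, the expressed genes alone, quantile normalisation or the day 4 libraries alone, 4 with no filter, and 0 to 3 when a library was left out. Of those lower (3 as reported), 1 passed with the filter at 5 FPKM, 0 with the day 4 libraries alone, and 1 without EZ replicate 2 to 22 without EZ replicate 1. For the change from the other ages (1 as reported) the counts were 0 with a pseudocount of 0.1 or a filter at 5 FPKM, 14 with no filter, and 1 to 9 when a library was left out. Higher calls made up 25% of all calls with the deposited scaling, 0% with quantiles and 33.3% with median-of-ratios. Among genes at an unadjusted p under 0.05 they made up 60.4%, 54.3% and 52.4% in that order.

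The replicate numbers are not stated to pair samples, and same-numbered EZ and MZ libraries deviated together with correlations of 0.009561, 0.2832, 0.07339, 0.03395 and 0.3474 at days 3 to 7. With a replicate block 0 genes were called higher, 0 lower and 0 for the change from the other ages, and 1509 were higher and 1359 lower at an unadjusted p.

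The replication median of 1.41 was 1.83 and 0.77 with pseudocounts of 0.1 and 5 and 1.23 after quantile normalisation, and the stem cell median of 0.59 was 0.37 with a pseudocount of 5 and 0.37 after quantile normalisation. Left-out libraries gave 1.26 to 1.54 for replication, 0.84 to 1.31 for histones, 0.48 to 1.07 for mitosis, 0.96 to 1.22 for ribosomal proteins, 1.1 to 2.53 for ribosome biogenesis, 0.62 to 0.82 for the stem cell list and 1.35 to 2.29 for heat shock. None of these lists changed sign in any alternative run. Medians of the D-type cyclin, endocycle, aquaporin, epidermal, auxin transport, auxin response, gibberellin and brassinosteroid, iron and nitrate lists did in at least 1. PLT2 (-0.03), XCP1 (0.05) and PIP2;1 (0.16) changed sign after quantile normalisation. Without a library PLT2 ranged from -0.54 to 0.93, XCP1 from -0.53 to 0.49, PIP2;1 from -0.56 to 0.49 and TIP1;1 from -0.23 to 0.60. The cause was not tested. With 2 libraries a zone and 12.6 to 18.8 M fragments, differences under about the spread of replicates were not detectable. Much larger ones also failed adjustment, such as PCNA1 at 2.21 ± 0.50 (SE, adjusted p = 0.183 by limma).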

Other observations

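A few genes 2-fold apart at day 4 had a difference of the opposite sign at the other ages, and were chosen after their values were seen. MES15, a methyl esterase, was 17.2 and 20.5 FPKM in the EZ libraries, against 3.56 and 3.68 FPKM in the MZ libraries, with a mean difference of -0.39 at the other ages. AT3G15670, of the late embryogenesis abundant family, was 158 and 166 FPKM in the EZ libraries, against 59.7 and 72.9 FPKM in the MZ libraries, with -0.26 at the other ages. LCR35, a cysteine-rich peptide gene, was 10.3 and 4.4 FPKM in the EZ libraries, against 33.7 and 35.1 FPKM in the MZ libraries, with 0.43 at the other ages. AT1G65970, a thioredoxin-dependent peroxidase, was 3.83 and 5.33 FPKM in the EZ libraries, against 38.9 and 12.1 FPKM in the MZ libraries, with 0.33 at the other ages.

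Values of a few large families follow, beside 7.69% of all expressed genes higher and 5.05% lower at an unadjusted p. The 106 expressed cytochrome P450 genes had a median of 0.02, with 3 higher and 2 lower at an unadjusted p by limma. The 47 expressed WRKY factors had a median of -0.11, with 1 higher and 1 lower. Of the 47, 33 were below 0, against 8197 of all 17137 expressed genes. The WRKY median was 0.17 without EZ replicate 1 and 0.02 without MZ replicate 2. It was -0.37 without EZ replicate 2 and -0.30 without MZ replicate 1, so its sign rests on single libraries. The 44 glutathione S-transferases had a median of -0.32, with 2 higher and 3 lower, and 15 had both EZ libraries below both MZ libraries (19.8% of all expressed genes did).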
